A study of Mus musculus with 16 samples.

Results

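The miR-344 family was examined by small RNA sequencing of prefrontal cortex from 16 mice, 8 carrying 1 copy of the PS19 transgene (genotype PS19+/-) and 8 wild-type (WT). PS19 mice are used to study tauopathy, that is, the build-up of the protein tau in neurons. Their tau transgene is human and mutated, and its promoter comes from the mouse gene Prnp, which encodes the prion protein. Per the study's methods, both groups were under a year old and held as many males as females. Members were all mature miRNAs whose name begins with mmu-miR-344, taken by name and not by their level. There were 13 of them among 1241 mature miRNAs and 18488 non-coding RNA entries in all. The comparison asked whether this group of miRNAs differs in abundance between the PS19 and the WT cortex.

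A miRNA is cut from a hairpin precursor, which can release a mature strand from its 5′ arm (5p) and another from its 3′ arm (3p). The strand is loaded into an Argonaute protein and finds its target mRNAs mainly through the seed, bases 2 to 8 from its 5′ end, so miRNAs that share a seed can share targets. The miR-344 family is known from rodents, mainly from nervous tissue, and its hairpins lie in a cluster of related copies.

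Names are written below without the species prefix mmu. The mature sequences are shown because the abundant members differ in their seeds. All 13 members were matched to RefSeq (GRCm38.p6), and the seed is in capitals. The first 6 are the members that were abundant enough to be tested, in order of their mean level, and the 2 after them are rare relatives of miR-344d-3p. The last is miR-410-3p, which lies outside the family and is shown for its seed.
mmu-miR-344d-3p: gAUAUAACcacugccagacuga
mmu-miR-344-3p: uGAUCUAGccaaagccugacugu
mmu-miR-344b-3p: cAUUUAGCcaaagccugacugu
mmu-miR-344d-3-5p: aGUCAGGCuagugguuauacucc
mmu-miR-344f-3p: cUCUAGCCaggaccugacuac
mmu-miR-344c-3p: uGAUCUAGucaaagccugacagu
mmu-miR-344e-3p: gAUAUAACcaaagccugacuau
mmu-miR-344h-3p: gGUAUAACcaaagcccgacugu
mmu-miR-410-3p: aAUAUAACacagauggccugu

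The 13 members carried 8 different seeds. miR-344d-3p and miR-344e-3p shared the seed AUAUAAC, which among the RefSeq mouse miRNAs was also found in miR-410-3p. miR-344-3p and miR-344c-3p shared GAUCUAG and were identical at 21 of 23 bases, so the counting could split reads between this pair and the level of the rarer miR-344c-3p is uncertain. miR-344b-3p matched miR-344-3p at 20 bases, with a common run of 18 bases at the 3′ end. Before that run the bases differed in part, and the strands were 22 and 23 bases long, so its seed was another, AUUUAGC. miR-344d-3p was more distant, with 16 bases identical to miR-344-3p. On the 5p side, 4 members shared the seed GUCAGGC. Apart from AUAUAAC, no seed of a member was found in a RefSeq mouse miRNA outside the family.

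All 13 Mir344 hairpins in RefSeq lay on the minus strand of chromosome 7 (GRCm38), between positions 61683124 and 62085310, a span of 402.2 kb. The hairpins Mir344d-3, Mir344e, Mir344h-1, Mir344h-2, Mir344b, Mir344c and Mir344 lay in introns of A230057D06Rik, a long intergenic non-coding RNA on the same strand. Mir344-2 was intronic and Mir344g exonic in A330076H08Rik, a processed transcript without a coding sequence. Mir344d-1, Mir344d-2, Mir344f and Mir344i overlapped no annotated gene other than themselves in GENCODE M21. The nearest protein-coding genes were Ndn, 261.3 kb beyond the cluster, and Magel2, 291.7 kb beyond it, while Snrpn lay 1543 kb before it. These 3 genes belong to the imprinted Prader-Willi region.

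**Figure D1:**
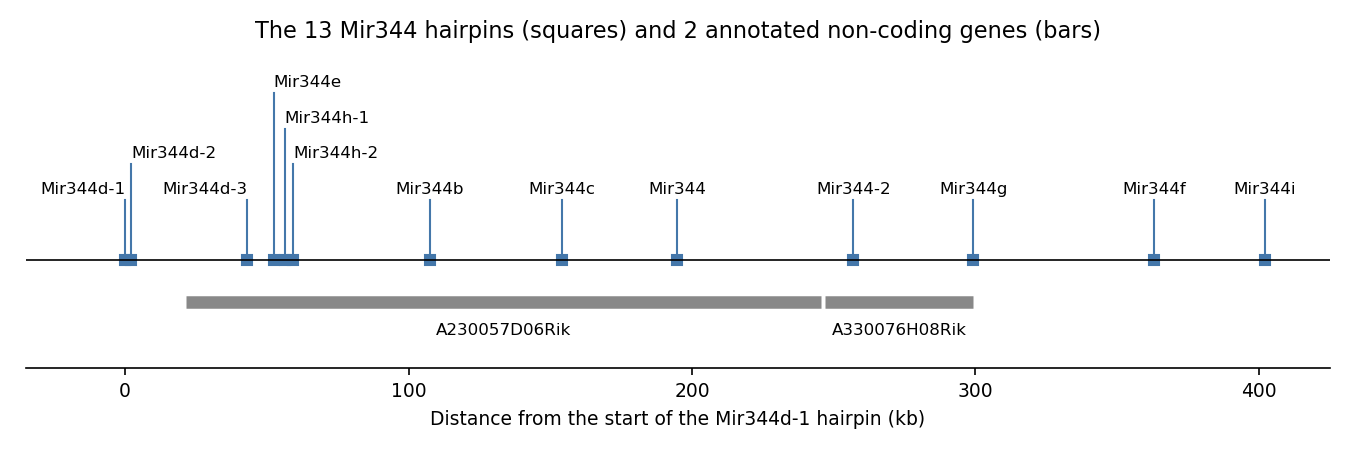
Positions of the 13 Mir344 hairpins (squares) along the minus strand of the cluster, as distance in kb from the start of Mir344d-1, with the annotated non-coding genes A230057D06Rik and A330076H08Rik as bars below. Hairpins of the d, e and h types sit together at 1 end, and 7 hairpins lie within the longer gene.

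Several members can come from more than 1 hairpin. The sequence of miR-344d-3p is the same in 3 hairpins, Mir344d-1, Mir344d-2 and Mir344d-3, and that of miR-344-3p is the same in Mir344 and Mir344-2. The level of each is therefore the sum over its hairpins. The hairpins Mir344d-3 and Mir344-2 are shown with their annotated mature strands in capitals, since they give the layout of the arms compared in the reads.
Mir344d-3 hairpin, chr7:61726249-61726328, minus strand: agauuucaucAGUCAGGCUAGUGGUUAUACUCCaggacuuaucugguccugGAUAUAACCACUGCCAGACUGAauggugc
Mir344-2 hairpin, chr7:61940027-61940106, minus strand: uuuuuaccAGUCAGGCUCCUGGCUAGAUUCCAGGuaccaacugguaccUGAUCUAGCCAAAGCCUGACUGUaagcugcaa

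Libraries held 13.2 M to 23.1 M assigned reads, of which 15.03% to 32.6% were miRNA reads. Levels are given as normalized counts, in which the authors divided the reads of a library by its size factor, so that 1 read was worth 0.595 to 1.46. The 5 neuronal miRNAs fixed as markers of brain tissue were found in every library, at unequal levels. miR-138-5p stood at 409 to 2845, miR-124-3p at 5333 to 20737, miR-9-5p at 63713 to 242086 and miR-128-3p at 184903 to 764931. Of 7 lists of miRNAs that mark other cell types, the summed normalized counts overlapped between the genotypes for each. Olfactory and sensory epithelium summed to 473 to 2289 in PS19 and 233 to 13963 in WT, ciliated cells and choroid plexus to 143 to 1865 and 208 to 965, and microglia and immune cells to 522.2 to 2893 and 402 to 1463. The liver list, miR-122-5p alone, stood at 138 to 654 in PS19 and 132 to 387 in WT, and of the 7 it varied most closely with the summed family level over the 16 libraries (r = 0.829 in normalized counts and 0.555 in miRNA RPM, as a description). The neuronal list, whose sum was mostly miR-128-3p, had an r of 0.655 and -0.585 with the family on these scales. Muscle summed to 2253 to 14631 in PS19 and 2867 to 10689 in WT, red blood cells to 731 to 1518 and 652 to 1411, and oligodendrocytes to 30.7 to 123 and 29.7 to 121. Some defining markers were at 0 in part of the libraries, such as miR-142a-3p of immune cells in 6 and miR-144-3p of red blood cells in 12. Some sums followed mainly 1 miRNA. In the immune list, miR-146a-5p alone stood at 519 to 2883 in PS19 and 400 to 1452 in WT. There miR-223-3p was at most 8.97 and miR-142a-3p at most 11.8. Red blood cells rested on miR-486a-5p, at 717 to 1499 and 627 to 1397, with miR-451a at most 40.1. Oligodendrocytes rested on miR-338-3p, at 29.3 to 114 and 26.9 to 113. The part of these lists in the results was not tested. PS19 replicate 1 stood apart for this family: it had the highest summed level of all libraries, and the sums, the tests and the main ratios and correlations are given with and without it.

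The summed level of the 13 members averaged 3246 ± 2455 in PS19 mice, compared to 3477 ± 1554 in WT (SD, n = 8 each). It ran from 1265 to 9063 in PS19, with a median of 2732, and from 1303 to 5357 in WT, with a median of 3414. The groups overlapped, and PS19 replicate 1 alone was above every WT library. Without that library the PS19 mean was 2414 ± 765 (SD, n = 7), and all of the 7 remaining values were below the WT median. In bulk tissue, fewer cells of a type and less RNA per cell cannot be told apart.

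As miRNA RPM, in which reads were scaled to the same miRNA total in every library, the family summed to 687 ± 265 in PS19 mice, compared to 739 ± 179 in WT (SD, n = 8 each). PS19 replicate 1 was also the highest here, at 1290 miRNA RPM with a 95% Wilson interval of 1259 to 1323, which covers counting error only. The next highest were WT replicate 2 at 1108 and PS19 replicate 5 at 845 miRNA RPM. Without PS19 replicate 1, the PS19 mean was 600 ± 113 (SD, n = 7), and 1 of 7 values was above the WT median of 719.7. The summed normalized count went up with the miRNA share of the library (Pearson r = 0.738 over 16 libraries, as a description), and the coefficient of variation over all libraries was 59.2% for normalized counts against 30.9% for miRNA RPM.

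**Figure D2:**
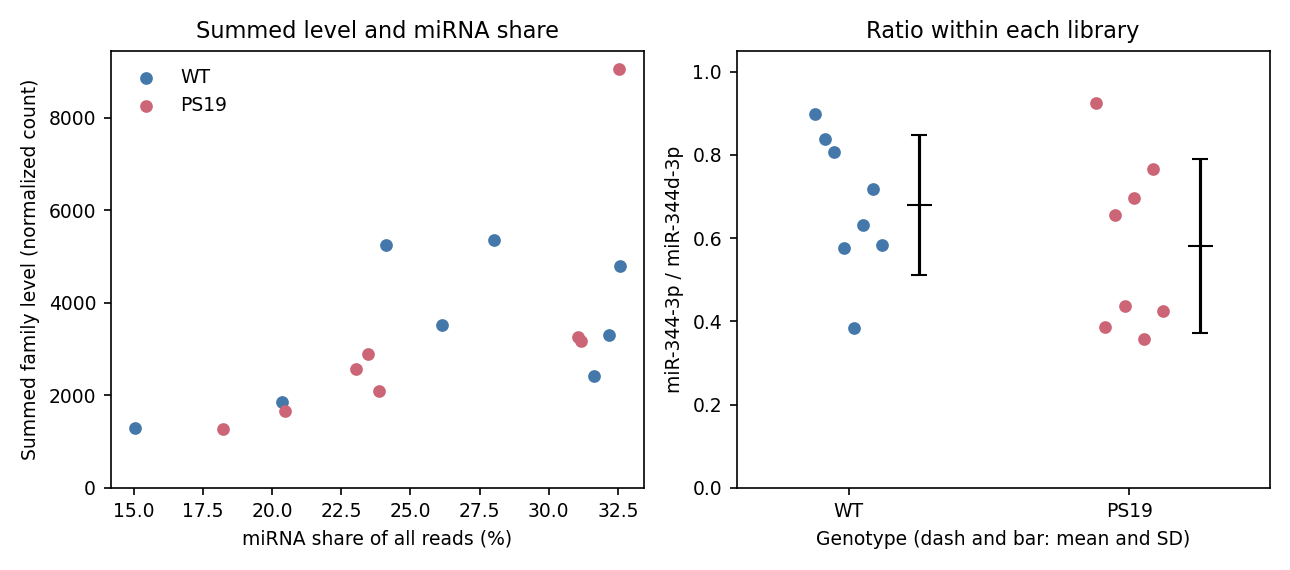
Left, the summed normalized count of the 13 members (y) against the miRNA share of all reads in % (x), 1 point per library. Right, the ratio of miR-344-3p to miR-344d-3p within each library by genotype, with mean and SD (n = 8 each). PS19 replicate 1, at 9063, lies above all other libraries on the left, and the ratios of the genotypes overlap on the right, from 0.358 to 0.924 in PS19 and 0.383 to 0.897 in WT.

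A few 3p strands made up nearly the whole family signal. miR-344d-3p held 52.1% of it, miR-344-3p 34.8% and miR-344b-3p 8.88%, and the 3 together held 95.8%. The order of levels was steady from mouse to mouse: miR-344d-3p was above miR-344-3p in 16 of 16 libraries, miR-344-3p above miR-344b-3p in 16, miR-344b-3p above miR-344d-3-5p in 16, and miR-344d-3-5p above miR-344f-3p in 16. miR-344f-3p was above miR-344c-3p in 13 of 16 libraries, so these neighbours were not separated. These are orders of reads from sequences of similar length, and how efficiently each sequence entered the libraries was not measured.

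miR-344d-3p, whose seed it shares with miR-410-3p, ranked 98 among the mature miRNAs by mean level. Its normalized counts in the 8 PS19 libraries, by replicate number, were 4100.04, 1651, 1710, 1934, 1538, 1368, 806 and 789. The WT values were 2460.01, 2452, 2292, 1759, 2199, 1007, 663 and 1299. PS19 replicate 1 was above every WT library, while the other 7 PS19 libraries lay between 789 and 1934, inside the WT range and below the WT median of 1979.

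miR-344-3p ranked 114. Its normalized counts were 3789, 635, 1119.7, 842, 1072, 489.6, 618 and 335 in PS19. In WT they were 2206, 2053, 1848, 1015, 841, 634, 477 and 759. WT replicates 1, 2 and 3 were high, at 1848 to 2206, and 3 of the 8 PS19 values were above the WT median of 928.

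miR-344b-3p, ranked 184, had normalized counts of 888, 183, 273, 222, 177, 109, 159 and 81.2 in PS19. Its WT counts were 495, 546, 448, 368, 325, 143, 114.6 and 246. PS19 replicate 1 was again the highest of all 16, and the 7 other PS19 values, 81.2 to 273, were below the WT median of 347. The groups overlapped, since WT replicates 6, 7 and 8 fell among them.

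The other 3 tested members were much rarer. miR-344d-3-5p had its lowest, median and highest normalized counts at 45.3, 83.2 and 191 in PS19 and at 34.7, 103 and 122 in WT. miR-344f-3p stood at 7.58, 21.8 and 39.5 in PS19 and at 7.004, 24.9 and 65.0 in WT. For miR-344f-3p, PS19 replicate 1 was not extreme, at 29.1. miR-344c-3p stood at 0.731, 10.2 and 56.8 in PS19, the lowest from 1 read in PS19 replicate 8, and at 5.66, 19.2 and 32.3 in WT.

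**Figure D3:**
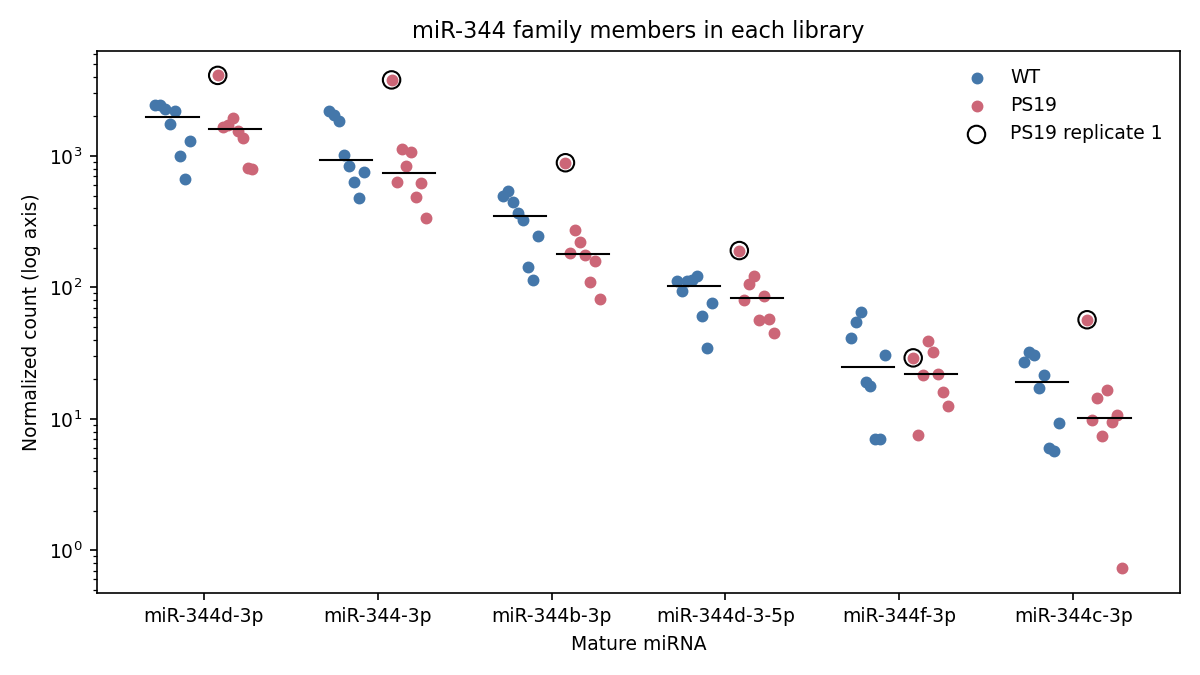
Normalized counts (log axis) of the 6 tested members in each of the 16 libraries, WT in blue and PS19 in red, with group medians as lines and PS19 replicate 1 ringed. The ringed library is the highest for 5 of the 6 members, and the genotypes overlap for all 6.

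The remaining 7 members had a mean normalized count under 5 and were left out of the test. miR-344-5p had 24 reads over all 16 libraries, with 8 libraries above 0 and at most 8 reads in 1 library. miR-344h-3p had 20 reads in 9 libraries and miR-344e-3p 9 reads in 5 libraries. miR-344d-2-5p had 6 reads in 3 libraries and miR-344c-5p 2 reads in 2. A single read in the whole study supported each of miR-344d-1-5p and miR-344f-5p, both in WT. A library with 0 reads still allows a level of up to 3 reads, or 1.78 to 4.37 normalized counts depending on the library, so differences between the genotypes were not detectable at this depth for these members. RefSeq holds 19 mature miR-344 names, and the 6 others, such as miR-344i, had no entry to analyse here.

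Within a hairpin, the 3p arm gave nearly all reads. miR-344-3p had 17973 reads against the 24 of miR-344-5p, miR-344c-3p had 267 against 2, and miR-344f-3p had 433 against 1. Of the d type, the 5p strand of 1 hairpin, Mir344d-3, was well detected. The ratio of miR-344d-3p to miR-344d-3-5p was 18.4 ± 4.31 in PS19 mice, compared to 19.1 ± 3.42 in WT (SD, n = 8 each), and 17.95 in PS19 without replicate 1. The 3p strand in that ratio comes from 3 hairpins and the 5p strand from 1, so the arms of a single d-type hairpin were not compared. The 5p strands differ between these hairpins and so show which locus the 5p reads came from, but not the 3p reads. Of 1466 reads of d-type 5p strands, 1459 were miR-344d-3-5p, a share of 99.5% (95% Wilson interval 99.0% to 99.8%, counting error only), 6 were miR-344d-2-5p and 1 was miR-344d-1-5p.

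The balance between the leading members varied more between mice than between genotypes. miR-344-3p reached 0.581 ± 0.209 of the level of miR-344d-3p in PS19 mice, compared to 0.679 ± 0.169 in WT (SD, n = 8 each). In PS19 the ratio ran from 0.358 in replicate 6 to 0.924 in replicate 1, and without replicate 1 its mean was 0.532 ± 0.168 (SD, n = 7). The ratio of miR-344b-3p to miR-344-3p was tighter, at 0.241 ± 0.0361 in PS19 mice, compared to 0.285 ± 0.0647 in WT (SD, n = 8 each), and the PS19 mean was 0.242 without replicate 1.

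None of the 6 tested members passed the test of PS19 against WT (limma, 0 of 6 at an adjusted p under 0.05 and 0 of 6 at an unadjusted p under 0.05). Over all 6024 non-coding RNAs tested, 0% were called at an adjusted p and 4.0% at an unadjusted p under 0.05. DESeq2 and edgeR on the recovered reads also called 0 of the 6 members at an adjusted or an unadjusted p under 0.05. Of all features, DESeq2 called 0.249% and edgeR 0% at an adjusted p, and 4.70% and 4.40% at an unadjusted p under 0.05. All 6 estimates were below 0, although that of miR-344d-3-5p turned to above 0 with either other scaling and in edgeR and DESeq2. With 1 library left out, it turned in 8 of 16 fits, that of miR-344d-3p in 4 and that of miR-344f-3p in 1. The 6 estimates had a median log2 difference (PS19 minus WT) of -0.27, beside -0.13 over the 521 mature miRNAs tested, of which 66.4% were below 0, and -0.02 over all features. These medians rested on single libraries: with 1 library left out, that of the members lay between -0.47 (PS19 replicate 1 left out) and -0.11 (WT replicate 2 left out). The median of the mature miRNAs lay between -0.26, with 79.5% below 0, when WT replicate 7 was left out, and -0.01, with 50.7% below 0, when PS19 replicate 8 was.

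In this fit, miR-344b-3p had the largest estimate in size, a log2 difference of -0.57 ± 0.41 (SE), which corresponds to 0.674 times the WT level with a 95% interval of 0.375 to 1.21 (limma, unadjusted p of 0.177, adjusted p = 0.9998). miR-344c-3p followed at -0.53 ± 0.51 (SE) and miR-344-3p at -0.34 ± 0.41 (SE). The most abundant member, miR-344d-3p, had a log2 difference of -0.08 ± 0.33 (SE), or 0.947 times WT with an interval of 0.592 to 1.52. miR-344f-3p was at -0.19 ± 0.43 (SE) and miR-344d-3-5p at -0.01 ± 0.31 (SE). This order depended on the tool, since miR-344f-3p was the largest in size in edgeR and in DESeq2, at -0.42 in both, against -0.39 and -0.36 for miR-344b-3p and -0.17 and -0.15 for miR-344-3p. Each interval covers both a lower and a higher level in PS19.

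With PS19 replicate 1 left out, miR-344b-3p stood at -0.88 ± 0.34 (log2 difference, SE, with an unadjusted limma p of 0.0182 and an adjusted p of 0.893), so 1 of 6 members passed the unadjusted threshold, where 5.33% of all features did. miR-344-3p moved to -0.65, miR-344c-3p to -0.86 and miR-344d-3p to -0.28 without it, and none of these passed the unadjusted threshold. When values were scaled to the miRNA total instead, miR-344b-3p stood at -0.51 ± 0.27 (SE, with an unadjusted limma p of 0.0693), with 2.04% of all features at an unadjusted p under 0.05 on that scale. With all 16 libraries and the replicate number as a block, a pairing that the labels do not establish, 1 of 6 members, miR-344b-3p, had an unadjusted p under 0.05, as did 6.96% of all features.

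Library names in the labels begin with a letter of unstated meaning. All 8 PS19 libraries and 2 of the WT libraries had a G, while 4 WT libraries had an F and the last 2 had an A. Since the 6 other WT libraries have no PS19 counterpart with their letter, the letter and the genotype cannot be told apart for them. With the letter as a term, which compares the 8 PS19 libraries with those 2 WT libraries, log2 differences were -1.17 ± 0.65 (SE) for miR-344b-3p, -0.78 ± 0.67 (SE) for miR-344-3p and -0.44 ± 0.53 (SE) for miR-344d-3p. None of the 6 members passed the test there either, with unadjusted limma p values from 0.0865 to 0.552, while 2.06% of all features had an unadjusted p under 0.05.

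**Figure D4:**
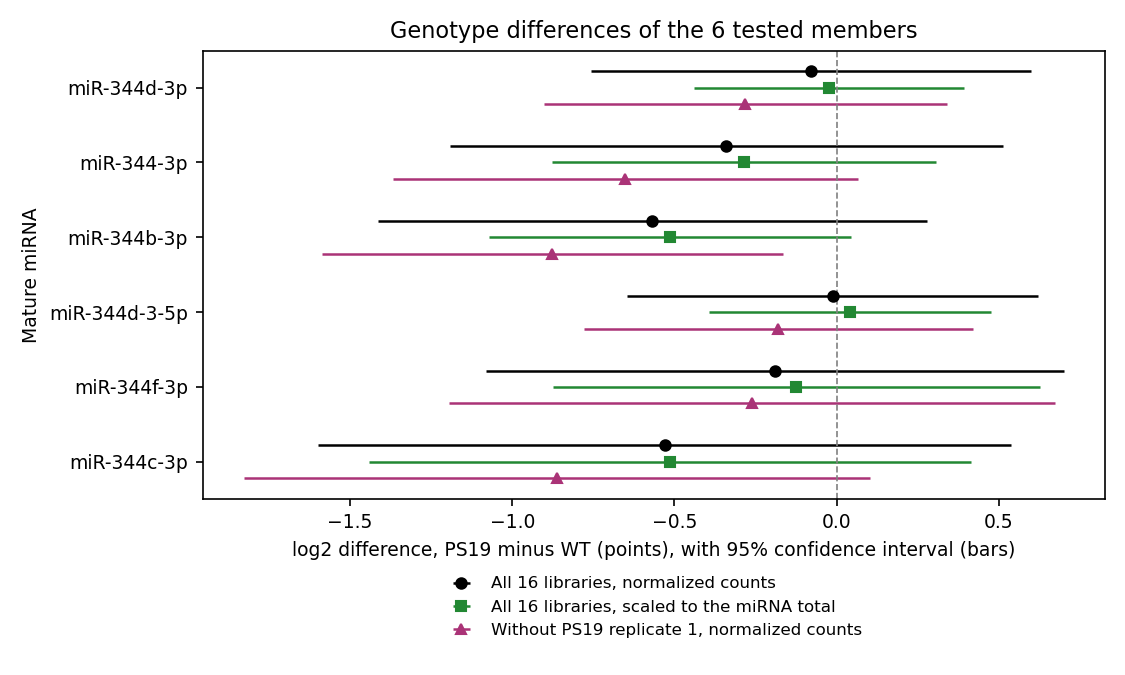
Log2 differences, PS19 minus WT (x), of the 6 tested members (y) with 95% confidence intervals from limma: normalized counts in all 16 libraries, values scaled to the miRNA total, and normalized counts without PS19 replicate 1. The intervals include 0 except for miR-344b-3p without PS19 replicate 1, where the estimate is -0.88.

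Reads assigned to the hairpin precursors were far fewer than those of the mature strands. Of 9 precursor entries, 5 had a mean of at least 5 and were tested, and none of the 5 passed (limma, 0 at an adjusted p and 0 at an unadjusted p under 0.05). Their log2 differences ran from -0.40 for mmu-mir-344-1 to 0.10 for mmu-mir-344d-3, which stood at -0.17 without PS19 replicate 1. The lowest of the 5 was -0.64 without PS19 replicate 1 and -0.19 without PS19 replicate 3. Their median was -0.10 in limma, with 1 above 0, but 0.06 in edgeR and 0.09 in DESeq2, with 3 above 0 in each. mmu-mir-344-1 and mmu-mir-344-2 had the same number of reads in 15 of 16 libraries, 136 and 137 in all, and mmu-mir-344d-1 and mmu-mir-344d-2 in 14 of 16, so each pair gives about 1 measurement. mmu-mir-344d-3 differed from mmu-mir-344d-1 in 12 libraries and had 117 reads against 89. The 4 others, mmu-mir-344b, mmu-mir-344g, mmu-mir-344f and mmu-mir-344c, had 10 to 36 reads over the study.

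Levels of several members went together across the mice. Over the 16 libraries, the log2 levels of miR-344-3p and miR-344b-3p had a Pearson r of 0.951, miR-344-3p and miR-344c-3p one of 0.903, and miR-344d-3p and miR-344d-3-5p one of 0.920. All members of a library have its miRNA share and depth in common, and these varied between libraries, so values from miRNA RPM are given beside: 0.874, 0.822 and 0.593 for the same pairs. Without PS19 replicate 1 these pairs had an r of 0.932, 0.878 and 0.893 in normalized counts and of 0.819, 0.773 and 0.471 in miRNA RPM. On that scale, miR-344-3p and miR-344d-3-5p had an r of 0.10, against 0.742 before, or -0.21 and 0.642 without PS19 replicate 1, and miR-344f-3p had -0.15 to 0.36 with the other tested members. The closest pairs on the miRNA scale lay among miR-344-3p, miR-344b-3p and miR-344c-3p, which of the tested 3p members have the most bases in common.

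Outside the family, the 5 mature miRNAs of 515 whose log2 levels were most like those of miR-344d-3p were miR-541-5p (r = 0.959), miR-493-5p (0.931), miR-221-3p (0.925), miR-325-5p (0.921) and miR-409-3p (0.921). The median r over the 515 was 0.662, so a high r was common on this scale. In miRNA RPM, the same 5 had r of 0.792, 0.639, 0.636, 0.547 and 0.664, beside a median of 0.02. Without PS19 replicate 1, their r ran from 0.902 to 0.964 in normalized counts and from 0.375 to 0.782 in miRNA RPM. miR-541-5p, miR-493-5p and miR-409-3p lie on chromosome 12 and miR-221-3p and miR-325-5p on X, none of them near the Mir344 cluster.

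miR-410-3p, which carries the seed of miR-344d-3p, had its lowest, median and highest normalized counts at 75.9, 124 and 396 in PS19 and at 79.2, 231 and 273 in WT. The estimate for PS19 minus WT, -0.44 ± 0.35 on the log2 scale (SE, limma, unadjusted p of 0.215, adjusted p = 0.9998), did not pass the test. Without PS19 replicate 1 it was -0.67 ± 0.31 (SE, limma, unadjusted p of 0.0452, adjusted p = 0.902). With a mean of 155 in PS19 and 201 in WT, it was far rarer than miR-344d-3p, at 1737 and 1766, in both groups. Most reads with the seed AUAUAAC among these 3 miRNAs were therefore those of miR-344d-3p.

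Small nucleolar RNAs of the imprinted region, of the C/D box class that is known for guiding RNA methylation, were compared by count. Of 19 Snord64, Snord107 and Snord116 entries, all were tested, and 0 had an unadjusted p under 0.05 in limma or edgeR and 1 had one in DESeq2, beside 4.0%, 4.40% and 4.70% of all features. For PS19 minus WT, 17 of the 19 estimates were below 0, also with either other scaling, beside 53.2% of all features. Log2 differences lay between -0.32 and 0.07 around a median of -0.15. Near-identical copies held the same values, so the 19 entries gave 9 distinct sets of values, 7 of them below 0. Several of these sets were themselves nearly alike. Snord116l9, Snord116l11, Snord116l13, Snord116l15 and Snord116l1 all stood at -0.17 to -0.15, with PS19 means of 3200 to 3228. Neither 17 of 19 nor 7 of 9 therefore counts independent entries. The median over the 19 entries was -0.01 without PS19 replicate 5, -0.09 without WT replicate 8 and -0.05, with 16 below 0, with the library letter as a term. Without PS19 replicate 1 it was -0.15, with 0 at an unadjusted p under 0.05 in limma. With the replicate number as a block, 1 entry had an unadjusted limma p under 0.05, as did 419 of all 6024 features. So did 1 with the filter at 20 (136 of 2510 features) and 1 without PS19 replicate 8 (307 of 6024).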

How the data were processed

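Small RNA was isolated from frozen prefrontal cortex and sequenced after a small RNA library preparation. Per the study's methods and the submitters' processing notes, the authors aligned reads with STAR 2.5.3a within COMPSRA, named mm10 as the build, and normalized with DESeq2 1.42.1. How reads that fit several entries were assigned was not given in the sources used here. The deposited values are a normalized signal, that is, read counts the authors divided by 1 size factor per library. Whole reads were recovered by dividing by the smallest value above 0, and 100% of values were whole within 0.01 reads. For WT replicates 4 and 6 (2 libraries) the unit step was close to 1, which makes this evidence weaker. Totals ranged from 13.2 M to 23.1 M assigned reads, and 3 reads were taken as the floor. The deposited table also gave the authors' log2 fold changes, Wald scores and p-values, none of which were used.

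Entries averaging at least 5 across the 16 libraries were tested with limma 3.58.1 (lmFit, eBayes with trend, R 4.3.3) on log2(value + 1) with genotype as the only term. Two-sided p-values were corrected by Benjamini-Hochberg across the 6024 features tested. Fold changes are on this scale, which understates changes of low features. Alternatives were edgeR 4.0.16 and DESeq2 1.42.0 on recovered reads, other scalings, filters and pseudocounts, the replicate number or the code letter as a term, and leaving out each library. The limma fit was tested on simulated counts with known changes. There it recovered 31% of the changes of 1 log2 unit and 96% of those of 2, so a change of 1 could well be missed. Libraries of a group were compared in 56 pairs, and the lowest chi-square of their reads was 43.5 per degree of freedom, so none repeated another.

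miRNA RPM values scale the recovered reads to the sum of all miRNA entries. Ratios used value + 1. Named were all mature and precursor miR-344 entries, the 5 mature miRNAs most like the most abundant member by Pearson r, and Snord entries of the imprinted region by count. miR-410-3p was added because of its seed. The members and lists were chosen with earlier results of these data known. Sequences and hairpin positions came from RefSeq and gene overlaps from GENCODE M21, both on GRCm38.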

Additional observations from a re-analysis of the deposited data

Results flagged for a closer look

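Within each genotype, a library was singled out when its gap to the nearest value made up more of the group's range than Dixon's 95% limit for 8 values. Of 54 group values examined, 22 met this, and 16 of the 22 were PS19 replicate 1 as the highest. Chance alone would single out about 1 in 20 groups of independent, continuous values, but these values include correlated members, near-duplicate precursors, sums and rare members with a single library above 0, so the count cannot be read against that share.

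In that library the summed family level was 9063 normalized counts and 1290 miRNA RPM. miR-344d-3p stood at 4100.04 (next 1934), miR-344-3p at 3789 (next 1119.7), miR-344b-3p at 888 (next 273) and miR-344c-3p at 56.8 (next 16.7). Of the 9 precursor entries, 8 were highest in it among the PS19 libraries, mmu-mir-344g being the exception, with mmu-mir-344-1, mmu-mir-344-2, mmu-mir-344d-1 and mmu-mir-344d-2 each at 20.4, mmu-mir-344d-3 at 26.2, mmu-mir-344b at 10.2 and mmu-mir-344f at 4.37. A few rare members rest on 1 to 3 reads there, with miR-344h-3p at 4.37, miR-344e-3p at 2.91 and miR-344d-2-5p at 1.46. Its miRNA share of reads was 32.6%, the highest in PS19, and it held 14.8 M reads. The part of that share in the family's level was not tested.

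Single reads gave 4 other values, miR-344c-5p at 1.45 in PS19 replicate 3 and 0.855 in WT replicate 3, miR-344d-1-5p at 0.855 in WT replicate 3 and miR-344f-5p at 0.707 in WT replicate 7. mmu-mir-344f was at 4.75 in WT replicate 2, from 5 reads. PS19 replicate 7 had the most reads in its group, 22.6 M.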

How the results depend on the processing

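The count of members past the adjusted threshold was 0 under every alternative that was run, where 0.249% of all features were called in DESeq2. At an unadjusted p under 0.05 it was 0 in all but 2 alternatives, and both called miR-344b-3p. The replicate block gave 1 member, with an unadjusted limma p of 0.0446 and an adjusted p of 0.708 for miR-344b-3p, and 6.96% of all features had an unadjusted p under 0.05 in that fit. The labels do not say what the number marks. Same-numbered libraries had r from 0.045 to 0.456, over 0.1 in 6 of 8 pairs, and 4 of 16 libraries correlated best with their own number. The level of miR-344d-3p tended to fall with the replicate number in both genotypes. With the block, the SE of its log2 difference went from 0.33 to 0.19, and that of miR-344b-3p from 0.41 to 0.26. What same-numbered libraries have in common was not tested, so a pairing of the libraries was not established. Leaving out 1 library gave 0 to 1 members, and the 1 came without PS19 replicate 1. The correlations, ratios, miR-410-3p and Snord entries without that library were added after seeing the data, and the r of miR-344-3p and miR-344d-3-5p in miRNA RPM turned from 0.099 to -0.21.

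Estimates below 0 for miR-344-3p, miR-344b-3p and miR-344c-3p kept that direction in every alternative. miR-344d-3-5p, whose estimate was near 0, turned to 0.011 when scaled to all features, 0.042 when scaled to miRNA features, 0.039 in edgeR and 0.030 in DESeq2. With 1 library left out, log2 differences ran from -0.19 to 0.11 for miR-344d-3-5p, from -0.28 to 0.058 for miR-344d-3p and from -0.42 to 0.017 for miR-344f-3p, so their sign depended on single libraries: PS19 replicates 7 and 8 and WT replicates 1 and 2 for miR-344d-3p, WT replicate 3 for miR-344f-3p and any of 8 libraries for miR-344d-3-5p. The ranges were -0.88 to -0.39 for miR-344b-3p, -0.65 to -0.15 for miR-344-3p and -0.86 to -0.14 for miR-344c-3p, each from the fit without PS19 replicate 1 to that without PS19 replicate 8. In edgeR and DESeq2, miR-344c-3p stood at -0.32 and -0.27 and miR-344d-3p at -0.02 in both. miR-344c-3p had a larger estimate in size than miR-344b-3p with a pseudocount of 0.5 (-0.59 against -0.57) and when PS19 replicate 5, 6 or 7 or WT replicate 8 was left out. The median over the members was -0.12 without PS19 replicate 8 or WT replicate 3, -0.13 without WT replicate 1, -0.43 and -0.46 without WT replicates 6 and 7, and -0.71 with the letter as a term. The summed level differed by -0.20 on the log2 scale, against a spread of 0.80 (SD) between mice, and by -0.45 without PS19 replicate 1 and -0.04 without PS19 replicate 8. Scaling moved the median of all features by at most 0.05. miR-344c-3p had too low a mean for the filter at 20. Without a filter, 11 members were fitted and 0 had an unadjusted p under 0.05, beside 680 of all 17088 features. Depth limits the 7 rare members, most of whose values are 0 to 4 reads.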
